A study of Homo sapiens with 16 samples.

Results

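The genes described here are the 76 mitochondrial ribosomal protein genes of the deposited count table, taken as every gene whose symbol reads MRPL or MRPS followed by a number and at most 1 letter, out of 34618 genes in all. The symbols were mapped from the table's Ensembl identifiers. The rule itself uses no measured value, but the genes were chosen with earlier results of these data known. By symbol 48 are MRPL genes and 28 are MRPS genes. By the place of the protein 50 belong to the large subunit and 25 to the small one, because MRPS18A and MRPS30 sit in the large subunit, and MRPS36 is now known as a component of the 2-oxoglutarate dehydrogenase complex. MRPL45 and MRPS21 were not analysed here.

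RNA was measured in 16 libraries of U937 and KG1A, both established human acute myeloid leukaemia lines. The groups were U937 with 10 µM NEL, U937 with the vehicle DMSO, KG1A with 10 µM NEL and KG1A with DMSO, with 4 libraries each. The labels give the agent only as NEL and state no treatment time. Nor do they say that the 4 libraries are independent cultures, and p-values therefore speak only of the spread among libraries, which may be technical. By its title the study is about deoxynucleotide pools and the differentiation block of acute myeloid leukaemia. All cells grew in RPMI medium with dialysed serum.

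Mitochondrial ribosomes translate the few proteins that mitochondrial DNA encodes, all of them parts of the respiratory chain and ATP synthase. Their RNA is made inside the organelle, but every one of their proteins is encoded in the nucleus, made on cytosolic ribosomes and imported. Some of these proteins have bacterial counterparts and others were added after the bacterial ancestor. The genes are scattered over the genome, here on 21 chromosomes, and are counted among the constitutively expressed genes of nucleated cells.

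Depth was even, at 10641567 to 11777684 counts per library, so that 3 counts, the limit taken for a gene with no count, corresponded to 0.255 to 0.284 CPM (counts scaled to the library total, with TMM factors over the 16 libraries). In all libraries the lineage markers fitted the lines in part. CD33 had 970 to 1297 counts in U937 and 1 to 21 in KG1A, whereas CD34 had 0 to 14 in U937 and 9135 to 11444 in KG1A. FLT3 did not pass 2 counts in KG1A and MPO did not pass 7 counts in any library, although FLT3 is listed for immature cells and MPO for promonocytic cells. CD33 is on both lists, so its low counts in KG1A run against the list for immature cells. KIT, on the list for immature cells, had 30 to 44 counts with NEL and 21 to 26 with DMSO in KG1A. PTPRC was present in all libraries. The 6 promonocytic markers summed to 6273 to 6568 counts in U937 NEL libraries and 4024 to 4171 counts in U937 DMSO libraries. CSF1R, the M-CSF receptor of monocytes, had 217 to 231 counts with NEL and 27 to 36 with DMSO in U937, and ITGAM, which encodes CD11b, had 575 to 651 counts with NEL and 88 to 109 with DMSO. In KG1A the promonocytic markers summed to 135 to 161 counts with NEL and 21 to 37 with DMSO, with ITGAM at 115 to 134 counts with NEL and 16 to 29 with DMSO (log2 2.32 ± 0.15, adjusted p = 2.53e-08, edgeR). SPI1, a transcription factor of myeloid cells, had 35 to 73 counts with NEL and 26 to 30 with DMSO in KG1A. The 7 markers of other lineages reported here summed to 136 to 174 counts in U937 NEL libraries and 31 to 38 in U937 DMSO libraries, mostly from CD79A and COL1A1. In KG1A they summed to 1508 to 1664 counts with NEL and 1470 to 1732 with DMSO, mostly from CD3D and CD3E. HBB and KRT18 were at 0 in all 16 libraries. The part of these marker shifts in the results below was not tested.

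Promoters of mitochondrial ribosomal protein genes are known for binding sites of ETS family factors such as GABP and for sites of YY1. In RefSeq promoter sequences (GRCh38.p14, 250 bases before to 50 after the gene start), 67 of the 76 genes were matched by symbol. The letters CCGGAAG, a core read by ETS factors, were found on either strand in 29 of them, or 43.3%, against 21.4% of 11384 matched genes tested and 10.3% of all 35116 promoters of the same length. The letters AAGATGG, the core of YY1 sites, were found in 23, or 34.3%, against 9.31% of the matched genes tested and 5.84% of all promoters. At least 1 of these motifs was present in 43 genes, or 64.2%, against 28.3% and 15.3%. The E-box CACGTG, read by MYC and related factors, was found in 8 genes (11.9%, against 12.2% of genes tested and 7.26% of all promoters). The NRF1 motif, read by a regulator of nuclear genes for mitochondria, was found in 8 genes as well (11.9%, against 12.7% and 5.78%). A gene with several listed starts counts as holding a motif if any of its promoters does, and shares over all promoters count each promoter. Matches were counted for each motif apart, and a match is a description of letters and no measured site.

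The promoters of MRPL20, which had the smallest p under NEL in U937 among the genes described here, of MRPL52, which was higher with NEL in U937, and of MRPS10, with the widest difference between the lines, are printed 5′ to 3′ on the strand of the gene. Capitals mark ETS and YY1 motif letters on either strand, so that CTTCCGG is an ETS motif of the opposite strand. Their places in GRCh38.p14 are chr1:1407244-1407543 on the minus strand for MRPL20, chr14:22829637-22829936 on the plus strand for MRPL52 and chr6:42217812-42218111 on the minus strand for MRPS10.
MRPL20: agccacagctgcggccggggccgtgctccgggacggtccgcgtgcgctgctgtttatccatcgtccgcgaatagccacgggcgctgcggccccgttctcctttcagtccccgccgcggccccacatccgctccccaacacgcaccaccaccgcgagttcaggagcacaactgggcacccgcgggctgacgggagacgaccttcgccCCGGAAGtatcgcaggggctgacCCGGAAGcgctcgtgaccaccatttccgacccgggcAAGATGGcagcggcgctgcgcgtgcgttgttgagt
MRPL52: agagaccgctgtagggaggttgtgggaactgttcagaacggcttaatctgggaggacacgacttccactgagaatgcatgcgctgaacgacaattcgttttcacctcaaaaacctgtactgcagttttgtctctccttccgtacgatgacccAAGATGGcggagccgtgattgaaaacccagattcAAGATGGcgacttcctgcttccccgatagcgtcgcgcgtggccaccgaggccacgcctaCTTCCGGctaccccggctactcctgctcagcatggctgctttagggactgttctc
MRPS10: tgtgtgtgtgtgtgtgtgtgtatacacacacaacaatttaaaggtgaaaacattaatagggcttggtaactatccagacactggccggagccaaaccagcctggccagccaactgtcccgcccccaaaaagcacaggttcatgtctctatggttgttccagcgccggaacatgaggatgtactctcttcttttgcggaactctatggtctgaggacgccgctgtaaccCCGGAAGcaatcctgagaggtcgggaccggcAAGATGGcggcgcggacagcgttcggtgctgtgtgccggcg
All of these printed promoters hold letters of both motifs, which is not so for other named members. The promoters of MRPL1, MRPL12, MRPL24 and MRPS17, lower with NEL in U937, held neither motif. Nor did those of MRPS6 and MRPL55, which were higher. The part of the motifs in these values was not tested. In U937 the median log2 fold change under NEL was -0.48 for members with the ETS motif and -0.51 for those without it, and -0.41 for members with the YY1 motif and -0.51 for those without it. It was -0.60 for members with the NRF1 motif and -0.45 for those without it.

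In U937, NEL was accompanied by lower RNA of most mitochondrial ribosomal protein genes. Of 74 genes with enough counts to test, 61 were lower with NEL than with DMSO and 3 were higher at an adjusted p under 0.05 (edgeR's quasi-likelihood test, 4 against 4 libraries, Benjamini-Hochberg over 14390 genes), while 10 passed in neither direction. Among all genes tested in U937, 34.7% were lower and 34.6% were higher, and 69.3% were called in all. The median log2 fold change, NEL over DMSO, was -0.51 over the 74 genes and 0.00 over all genes tested. The 4 NEL libraries lay wholly below the 4 DMSO libraries for 58 of the 74, against 31.1% of all genes tested, and the treatments did not overlap in either direction for 61, against 62.2% of all genes tested. Together the 76 genes took 0.372 ± 0.00800% of all counts in U937 NEL libraries and 0.470 ± 0.0128% in U937 DMSO libraries (SD, n = 4 each). In bulk RNA, a lower level in every cell cannot be told apart from a larger share of cells with a low level.

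**Figure D1:**
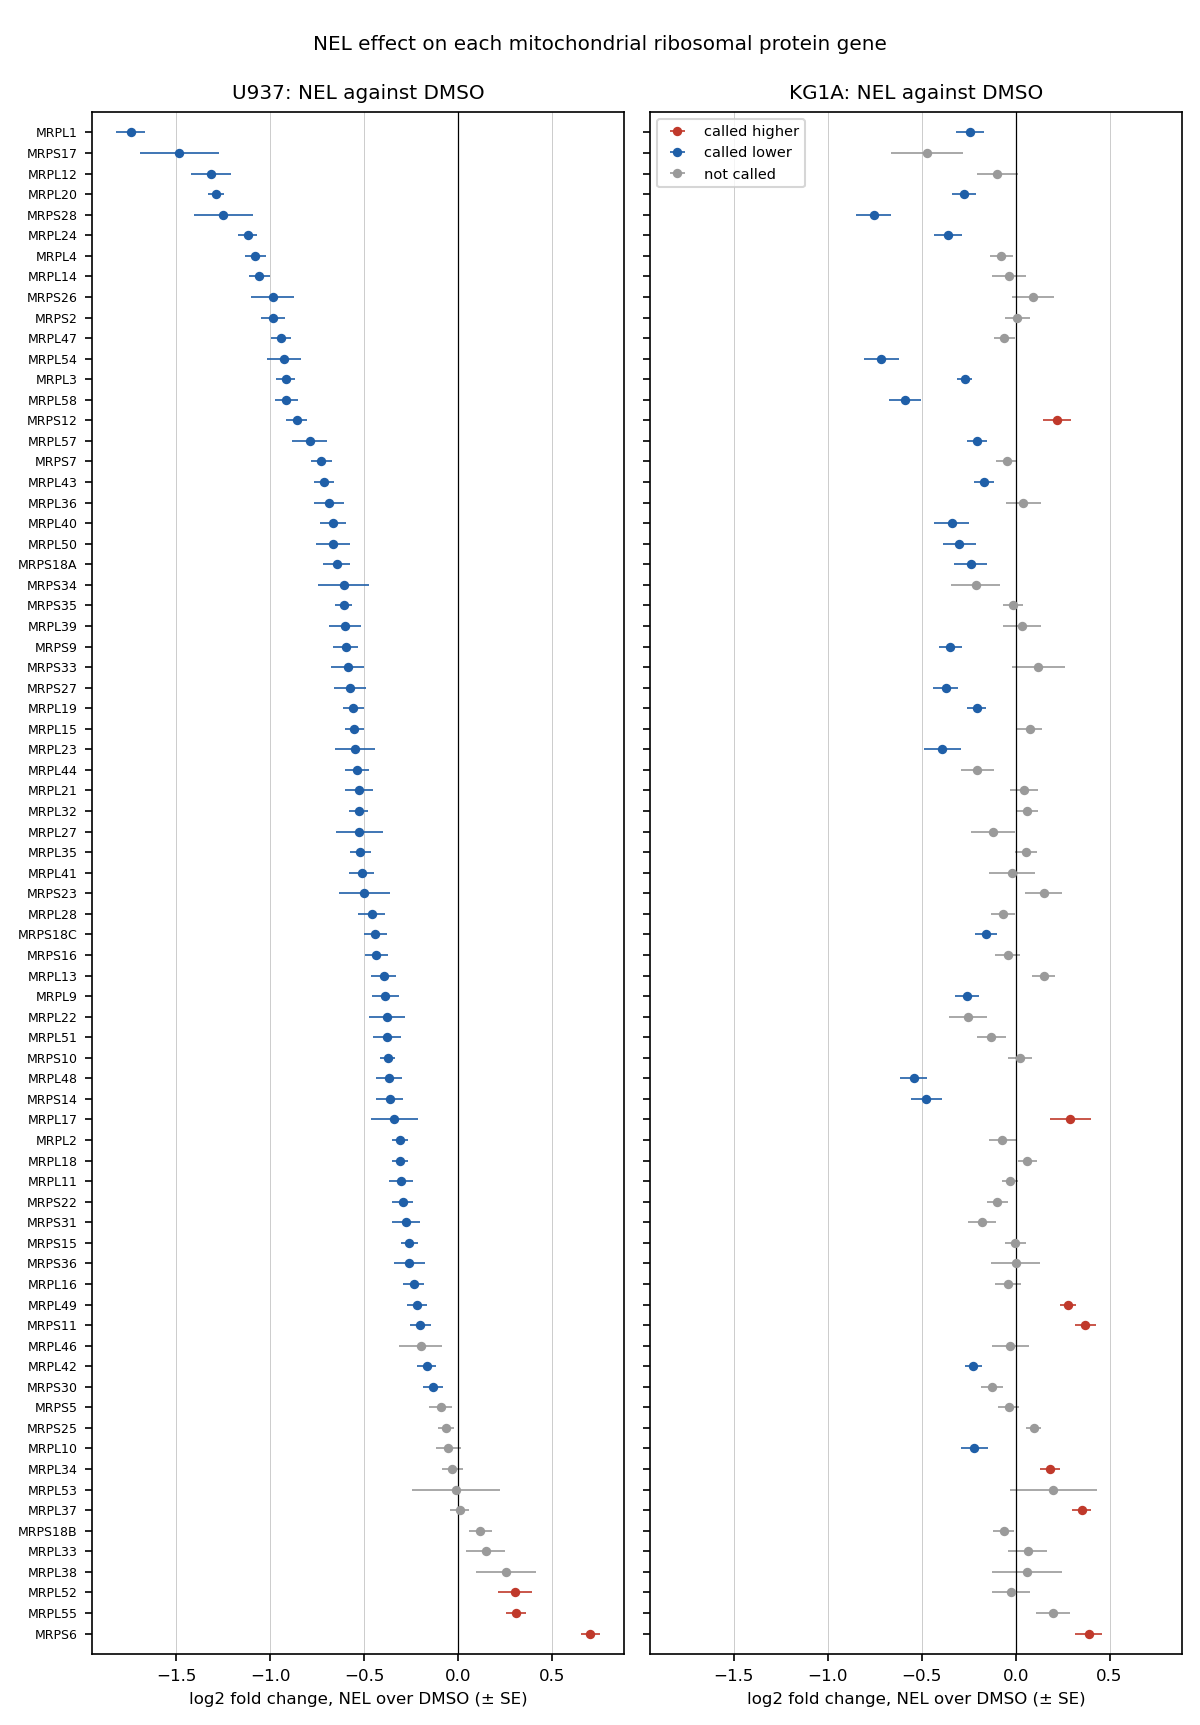
Log2 fold change, NEL over DMSO, with its standard error for each of the 74 tested genes in U937 (left) and KG1A (right), ordered by the U937 value; blue marks genes called lower, red genes called higher and grey genes not called. In U937 61 genes were called lower, against 22 in KG1A.

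Of the members tested, MRPL1 had the most negative fold change under NEL in U937. The gene (ENSG00000169288, chr4:78783674-78873944 in GRCh37, as are all gene positions below) encodes a protein of the L1 stalk, the mobile arm by which the spent tRNA leaves the ribosome. It had 9.96, 9.37, 10.2 and 9.17 CPM in U937 NEL libraries, against 33.4, 29.4, 32.6 and 34.5 CPM in U937 DMSO libraries. All NEL libraries lay far below all DMSO libraries, a 3.35-fold lower level (log2 fold change -1.74 ± 0.08 SE, adjusted p = 2.31e-10, edgeR).

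MRPL20 (ENSG00000242485, chr1:1337288-1342693), an early-binding protein of the large subunit in bacteria, had 39.7, 38.6, 38.2 and 40.4 CPM with NEL, against 95.2, 95.9, 96.0 and 97.0 CPM with DMSO in U937. The spread within each group was narrow beside the gap between them, and the level was 2.44-fold lower with NEL (log2 -1.29 ± 0.04, adjusted p = 1.86e-11, edgeR). MRPL24 (ENSG00000143314, chr1:156707095-156711382), a protein near the exit of the tunnel through which the new chain leaves, had 32.6, 36.6, 35.8 and 36.4 CPM with NEL, against 79.4, 74.1, 76.1 and 78.5 CPM with DMSO. Its groups did not overlap either (log2 -1.12 ± 0.05, adjusted p = 3.35e-10, edgeR). All 5 tested members near the tunnel exit, MRPL17, MRPL22, MRPL23, MRPL24 and MRPL47, were lower with NEL in U937, with a median log2 fold change of -0.55.

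The stalk that recruits elongation factors to the large subunit is built from MRPL10, MRPL11 and MRPL12, and MRPL53 lies at its base. MRPL12 (ENSG00000262814, chr17:79670387-79674556), which is also reported to bind the mitochondrial RNA polymerase, had 11, 10.6, 12.4 and 12.1 CPM with NEL, against 32.9, 31.4, 24.8 and 26.0 CPM with DMSO in U937. No NEL library came near the lowest DMSO library, and the level was 2.49-fold lower with NEL (log2 -1.32 ± 0.10, adjusted p = 7.26e-08, edgeR). The gene overlaps SLC25A10 on the same strand, which had 21 to 77 counts per library. MRPL11, the stalk base, was lower by a smaller step (log2 -0.30 ± 0.06, adjusted p = 0.000562, edgeR). MRPL10, which carries MRPL12, had a log2 fold change of -0.05 (adjusted p = 0.509, edgeR), and MRPL53 one of -0.01 (adjusted p = 0.97).

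In the small subunit, 20 of 24 tested members were lower with NEL in U937 and 1 was higher, beside 40 lower and 2 higher of 49 in the large subunit. MRPS17 (ENSG00000239789, chr7:56019512-56024192), an RNA-binding protein of the small subunit's body, had 1.99, 2.81, 1.83 and 3.65 CPM with NEL, against 5.55, 8.51, 6.43 and 8.50 CPM with DMSO. Libraries 2 and 4 were higher than 1 and 3 in both groups, but no NEL library reached the lowest DMSO one (log2 -1.49 ± 0.21, adjusted p = 2.31e-05, edgeR). It lies on the same strand as NIPSNAP2, which had 554 to 970 counts per library, and 4 pseudogenes are named after it, so its own counts are uncertain.

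MRPS28 (ENSG00000147586, chr8:80830952-80942524), a protein of the small subunit, had 5.02, 3.07, 4.27 and 4.84 CPM with NEL, against 10.6, 11.3, 7.95 and 11.2 CPM with DMSO in U937. The groups were apart (log2 -1.25 ± 0.16, adjusted p = 7.28e-06, edgeR). MRPS12 (ENSG00000128626, chr19:39421188-39423802), the decoding-centre protein whose bacterial form is a target of streptomycin, had 29.1, 32.3, 32.8 and 32.8 CPM with NEL, against 60.5, 56.2, 58.5 and 55.5 CPM with DMSO. Its level was 1.81-fold lower (log2 -0.86 ± 0.06, adjusted p = 1.01e-08, edgeR).

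MRPS26 (ENSG00000125901, chr20:3026591-3028900), one of the proteins without a bacterial counterpart, had 34.0, 44.3, 32.8 and 41.3 CPM with NEL, against 66.9, 85.1, 64.3 and 86.7 CPM with DMSO in U937. Libraries 2 and 4 were again above 1 and 3 within each group, and the drop was similar within both sets (log2 -0.99 ± 0.11, adjusted p = 2.71e-06, edgeR). All 7 tested proteins of the small subunit's head, MRPS7, MRPS9, MRPS10, MRPS14, MRPS31, MRPS33 and MRPS35, were lower, with log2 fold changes between -0.73 and -0.28. Genes with a bacterial counterpart and genes without one hardly differed in their counts: 38 of 45 and 22 of 28 were lower in U937, with medians of -0.52 and -0.51.

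At least a 2-fold lower level was reached by 8 genes, MRPL1, MRPS17, MRPL12, MRPL20, MRPS28, MRPL24, MRPL4 and MRPL14. MRPS30, at the other end, was lower by 0.14 on the log2 scale, with overlapping groups and an adjusted p of 0.0355 (edgeR) that was above 0.05 without DMSO library 3 (0.0708) or 4 (0.0957), or without NEL library 3 (0.0555) or 4 (0.0853). The paralogues of the bacterial S18 protein differed among themselves in U937. MRPS18A, of the large subunit, was at -0.65 ± 0.07 (adjusted p = 2.24e-06), MRPS18C at -0.44 ± 0.06 (adjusted p = 2.05e-05) and MRPS18B at 0.12 ± 0.06 (adjusted p = 0.0981, and 0.00439 with same-numbered libraries as pairs, all log2 from edgeR).

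The 3 genes that were higher with NEL in U937 were MRPS6, MRPL55 and MRPL52. MRPS6 (ENSG00000243927, chr21:35445524-35515334), the counterpart of bacterial S6 in the small subunit, had 63.6, 59.9, 60.01 and 61.4 CPM with NEL, against 35.8, 37.6, 36.8 and 40.3 CPM with DMSO. All NEL libraries were above all DMSO libraries, a 1.63-fold higher level (log2 0.71 ± 0.05, adjusted p = 3.21e-08, edgeR). SLC5A3, which lies within the gene on the same strand, was listed at 0 counts in all libraries. MRPL55 had 46.1, 41.98, 45.2 and 45.4 CPM with NEL, against 37.8, 35.7, 34.9 and 36.3 CPM with DMSO (log2 0.31 ± 0.05, adjusted p = 0.000143). MRPL52 had 43.2, 44.2, 43.7 and 49.1 CPM with NEL, against 30.7, 40.4, 33.1 and 42.1 CPM with DMSO (log2 0.30 ± 0.09, adjusted p = 0.00797). Its groups are parted only narrowly.

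**Figure D2:**
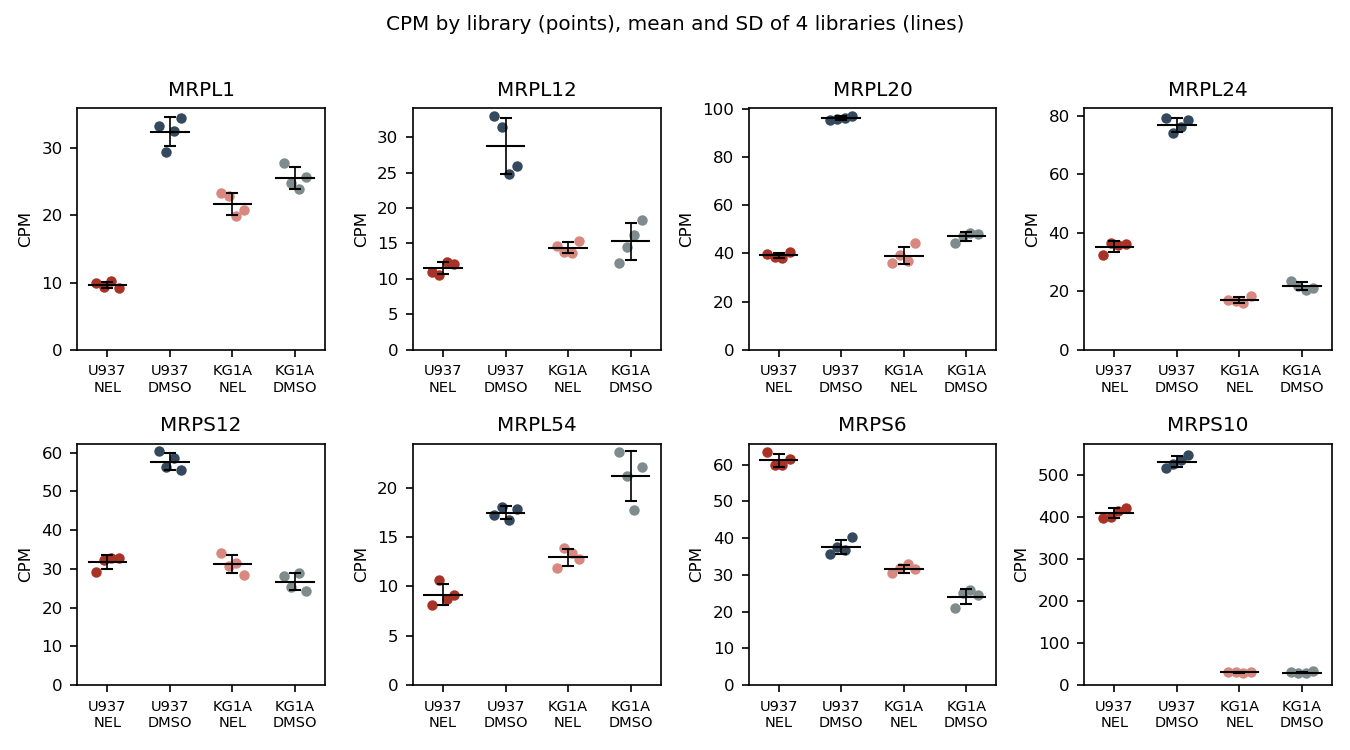
CPM of 8 genes in each of the 16 libraries (points), with the mean and SD of the 4 libraries of a group (lines); each panel has its own axis from 0. MRPL1, MRPL12, MRPL20, MRPL24 and MRPS12 were lower with NEL in U937 without an equal step in KG1A, MRPL54 was lower in both lines, MRPS6 was higher in both, and MRPS10 differed mainly between the lines.

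In KG1A the members' RNA moved less, and in both directions. With NEL, 22 of the 74 were lower and 7 were higher than with DMSO (edgeR, adjusted p under 0.05 over 14250 genes), and 45 were not called. Of all genes tested in KG1A 47.2% were called, 23.6% lower and 23.6% higher, beside 29.7% of the tested members lower and 9.46% higher. The median was -0.05 over the members and 0.00 over all genes tested. With same-numbered libraries taken as pairs, 30 were lower and 11 were higher. That fit called 4235 of all 14250 genes tested lower and 4111 higher, against 3362 and 3367 in the main fit. On RPKM not rescaled between libraries (limma), 17 were lower and 10 were higher, and the members' median was 0.01. Over all genes tested, 2263 of 14250 were lower and 4106 were higher on that scale, with a median of 0.05. The 76 genes took 0.308 ± 0.0102% of counts in KG1A NEL libraries and 0.306 ± 0.00674% in KG1A DMSO libraries (SD, n = 4 each). The NEL libraries lay wholly below the DMSO libraries for 20 genes, against 20.2% of all genes tested, and did not overlap them in either direction for 26, against 42.2%.

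The member with the most negative fold change in KG1A was MRPS28, with 8.48, 9.71, 9.20 and 8.57 CPM with NEL, against 16.6, 15.4, 13.5 and 14.99 CPM with DMSO. The groups did not overlap and the level was 1.69-fold lower (log2 -0.76 ± 0.09, adjusted p = 1.37e-05, edgeR). TPD52 overlaps MRPS28 on the same strand and had 0 to 506 counts per library. MRPL54 (ENSG00000183617, chr19:3762662-3768573), a small large-subunit protein without bacterial counterpart, had 11.8, 13.9, 13.3 and 12.8 CPM with NEL, against 23.6, 21.2, 17.8 and 22.1 CPM with DMSO in KG1A (log2 -0.72 ± 0.09, adjusted p = 2.45e-05). In U937 it had 8.14, 10.6, 8.71 and 9.17 CPM with NEL, against 17.3, 18.1, 16.7 and 17.9 CPM with DMSO (log2 -0.93 ± 0.09, adjusted p = 6.47e-07). NEL libraries were therefore below DMSO libraries in both lines.

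MRPL58 (ENSG00000167862, chr17:73008765-73017356), also called ICT1, is a peptidyl-tRNA hydrolase built into the large subunit. It had 16.2, 13.3, 13.3 and 13.5 CPM with NEL, against 19.9, 21.97, 22.1 and 20.5 CPM with DMSO in KG1A (log2 -0.59 ± 0.08, adjusted p = 4.42e-05). In U937 it had 18.3, 19.8, 19.7 and 20.5 CPM with NEL, against 37.2, 38.1, 35.1 and 37.5 CPM with DMSO (log2 -0.91 ± 0.06, adjusted p = 1.39e-08). The groups were apart in both lines. MRPL48 (ENSG00000175581, chr11:73498361-73576178), a protein of the central protuberance, had 24.2, 30.5, 30.9 and 28.3 CPM with NEL, against 40.9, 41.2, 43.3 and 40.0 CPM with DMSO in KG1A (log2 -0.54 ± 0.07, adjusted p = 2.26e-05). MRPS14, of the head, was at -0.48 ± 0.08 (adjusted p = 0.000246) and MRPL23, at the tunnel exit, at -0.39 ± 0.10 (adjusted p = 0.00518) in KG1A. In U937 these 3 were at -0.37, -0.36 and -0.55, all called lower (edgeR).

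The 7 genes that were higher with NEL in KG1A were MRPS6, MRPS11, MRPL37, MRPL17, MRPL49, MRPS12 and MRPL34. MRPS6 had 30.4, 31.8, 33.0 and 31.6 CPM with NEL, against 21, 25.1, 25.9 and 24.4 CPM with DMSO (log2 0.39 ± 0.07, adjusted p = 0.000372). It was the only member called higher in both lines. MRPS11 (ENSG00000181991, chr15:89010684-89022222), of the small subunit's platform, had 50.4, 49.6, 47.6 and 45.3 CPM with NEL, against 35.7, 37.3, 35.6 and 39.8 CPM with DMSO in KG1A (log2 0.37 ± 0.06, adjusted p = 9.96e-05). In U937 it had 50.4, 46.3, 43.8 and 47.9 CPM with NEL, against 53.1, 54.4, 52.2 and 57.6 CPM with DMSO (log2 -0.20 ± 0.06, adjusted p = 0.00514). The direction was thus opposite in the 2 lines, with groups apart in each.

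MRPL37 (ENSG00000116221, chr1:54649714-54691137), a large-subunit protein without a bacterial counterpart, had 168, 156, 172 and 149 CPM with NEL, against 130.0, 121, 129.8 and 122 CPM with DMSO in KG1A (log2 0.35 ± 0.05, adjusted p = 3.92e-05). In U937 its log2 fold change was 0.01 (adjusted p = 0.889), with 257, 237, 258 and 234 CPM with NEL, against 252, 227, 263 and 239 CPM with DMSO. Its NEL and DMSO libraries overlapped there. MRPL49 (ENSG00000149792, chr11:64889655-64894843) had 111, 119, 114 and 121 CPM with NEL, against 91.3, 100.1, 93.7 and 96.7 CPM with DMSO in KG1A (log2 0.28 ± 0.04, adjusted p = 0.000129), and was at -0.22 (adjusted p = 0.00178) in U937. It overlaps FAU on the opposite strand, which had 951 to 2755 counts, and the counting's use of strand is not given in the sources used here. MRPL34 was at 0.18 ± 0.05 (adjusted p = 0.0104) in KG1A and at -0.03 in U937.

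MRPS12, MRPL17 and 2 of the genes above were higher in KG1A and lower in U937, which makes 4 in all, MRPL17, MRPL49, MRPS11 and MRPS12. MRPS12 had 34.1, 30.6, 31.5 and 28.4 CPM with NEL, against 28.1, 25.2, 28.8 and 24.3 CPM with DMSO in KG1A. These groups overlapped (log2 0.22 ± 0.07, adjusted p = 0.0238), and the adjusted p was 0.0675 without DMSO library 2, 0.0792 without DMSO library 4 and 0.0750 without NEL library 1. MRPL17 also overlapped between NEL and DMSO in KG1A (log2 0.29 ± 0.11, adjusted p = 0.0390) and in U937 (log2 -0.34 ± 0.13, adjusted p = 0.0272). MRPL10 was lower in KG1A alone among its calls (log2 -0.22 ± 0.07, adjusted p = 0.0231), again with overlapping groups, and its adjusted p was between 0.0619 and 0.0781 without DMSO library 1 or 3 or NEL library 2 or 3. MRPS18A in KG1A (log2 -0.24 ± 0.09, adjusted p = 0.0361) had an adjusted p of 0.124 without DMSO library 3 and of 0.0540 to 0.0853 without any one NEL library. MRPS18C in KG1A (log2 -0.16 ± 0.06, adjusted p = 0.0336) had values of 0.0535 to 0.113 without DMSO library 1, 2 or 3 or NEL library 1 or 2. MRPL44, a large-subunit protein with a ribonuclease III fold, was lower in U937 (log2 -0.54 ± 0.06, adjusted p = 3.81e-06) and at -0.20 ± 0.09 in KG1A (adjusted p = 0.0750, and 0.0062 with the replicate numbers as pairs).

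Set side by side, 21 genes were lower in both lines, 36 were lower in U937 and not called in KG1A, and 7 were called in neither. Across the 74 genes the log2 fold changes of the lines had a Pearson correlation of 0.49 and a Spearman correlation of 0.45, given as a description, since genes share libraries and scaling. Over the 12590 genes tested in both lines these were 0.30 and 0.28.

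**Figure D3:**
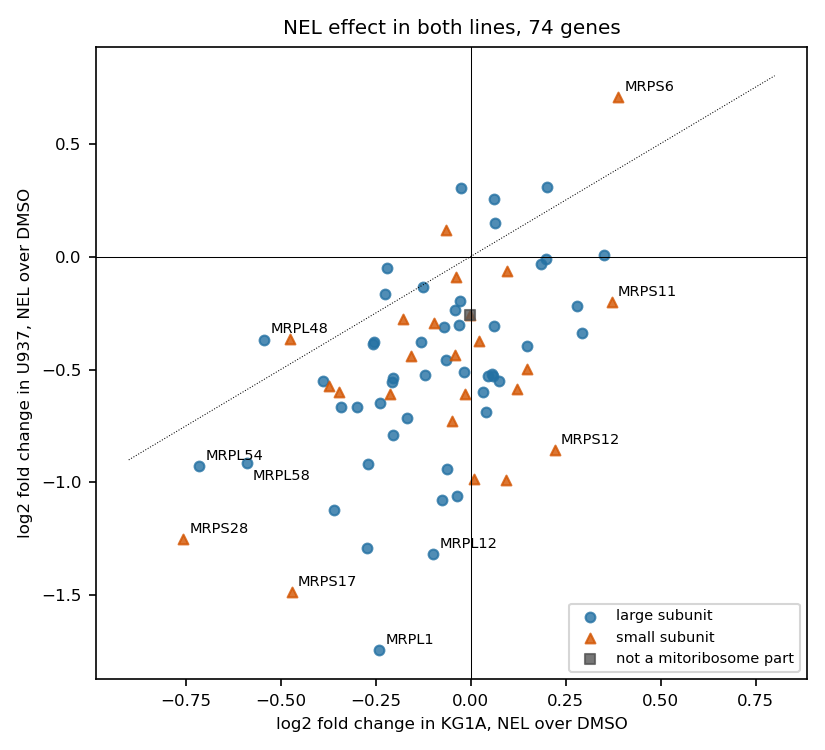
Log2 fold change under NEL in U937 (vertical) against KG1A (horizontal) for 74 genes, with circles for the large subunit, triangles for the small one and a square for MRPS36; the dotted line marks equal change. Most points lie below the dotted line, and MRPS6 lies at the upper right in both lines.

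How far the NEL effect differed, as U937 minus KG1A, was tested as the interaction over all 16 libraries. It was negative and called for 49 of 74 genes and positive and called for 1, MRPS6, against 26.3% and 21.1% of 16117 genes tested (47.4% in all). The median difference was -0.38 on the log2 scale, and -0.03 over all genes tested. With the replicate numbers as pairs 55 were negative and 3 positive, against 4856 and 3947 of the 16117 genes tested. With DESeq2's size factors they were 40 and 4, against 3483 and 4122 of all genes tested. The 4 most negative differences were those of MRPL1 (-1.51 ± 0.11, adjusted p = 1.78e-10), MRPL12 (-1.23 ± 0.16, adjusted p = 1.39e-06), MRPS26 (-1.09 ± 0.18, adjusted p = 2.37e-05) and MRPS12 (-1.09 ± 0.09, adjusted p = 3.28e-09). In KG1A, MRPL12 had 14.7, 13.9, 13.6 and 15.3 CPM with NEL, against 12.2, 14.6, 16.2 and 18.3 CPM with DMSO, and MRPS26 had 24.5, 30.9, 22.1 and 29.2 CPM with NEL, against 22.1, 28.1, 21.9 and 27.3 CPM with DMSO. Both overlapped between treatments there, with log2 fold changes of -0.10 (adjusted p = 0.493) and 0.09 (adjusted p = 0.521).

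MRPL1 in KG1A had 23.3, 22.9, 19.9 and 20.8 CPM with NEL, against 27.8, 24.8, 23.9 and 25.8 CPM with DMSO, a smaller drop than in U937 but with groups apart (log2 -0.24 ± 0.07, adjusted p = 0.0157). MRPS6 had a positive difference of 0.31 ± 0.08 (adjusted p = 0.00445). For MRPL54 the difference was -0.22 ± 0.13 (adjusted p = 0.188), for MRPL48 0.17 ± 0.10 (adjusted p = 0.199) and for MRPS14 0.10 ± 0.11 (adjusted p = 0.515, all edgeR), so no difference between the lines was detected for these genes.

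Levels of different genes were compared as deposited RPKM, which are per exon length. The median over the 74 tested genes was 14.8 RPKM in U937 with NEL and 19.0 with DMSO, and 14.4 RPKM in KG1A with NEL and 14.4 with DMSO. By the mean over all 16 libraries the order was led by MRPS10, the uS10 protein of the small subunit's head, at 200 ± 6.75 RPKM with NEL and 243 ± 4.83 with DMSO in U937, whereas in KG1A it had 14.7 ± 0.369 RPKM with NEL and 13.8 ± 1.01 with DMSO (SD, n = 4 each). The next by that mean were MRPL37 with 99.6 and 93.0 RPKM in U937 NEL and DMSO libraries and 64.8 and 48.5 RPKM in KG1A NEL and DMSO libraries, MRPS34 with 46.2 ± 8.09 and 66.2 ± 13.2 in U937 and 53.1 ± 13.1 and 58.7 ± 7.43 in KG1A, and MRPL18 with 65.9 and 76.7 in U937 and 33.2 and 30.3 in KG1A. In U937 with DMSO, MRPL18 and MRPS34 were closer to each other than the SD of MRPS34, and in KG1A with NEL MRPL37 and MRPS34 likewise. Within single groups the order was another one: MRPL51 (48.2 ± 4.85 RPKM) and MRPS18B (47.6 ± 3.15) stood above MRPS34 in U937 with NEL, by less than the SD of MRPS34. In KG1A, MRPL16 had 54.4 ± 4.295 RPKM with NEL and 53.4 ± 5.33 with DMSO and MRPL15 had 47.1 ± 2.56 with NEL and 42.8 ± 4.06 with DMSO, both above MRPL18.

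The lowest tested members by the same mean were MRPL38 (0.836 RPKM with NEL and 0.657 with DMSO in U937, 0.519 and 0.475 in KG1A), MRPL53 (1.32 and 1.25, then 2.26 and 1.88), MRPL46 (1.68 and 1.81, then 1.68 and 1.64) and MRPS17 (1.23 and 3.24, then 2.17 and 2.87). MRPL38 was the lowest of them in each group, by more than its own SD. MRPL53 and MRPS17 were closer to each other than the SD of MRPS17 in both NEL groups, and MRPL46 and MRPL53 than the SD of MRPL53 in KG1A with DMSO. MRPL38 lies on the same strand as FBF1, MRPL53 as CCDC142 and MRPS17 as NIPSNAP2. Both members that did not reach the count minimum, MRPL30 and MRPS24, lie on the same strand as a gene that covers them. MRPL30 had 0 to 2 counts per library and 0 in all U937 libraries, beside 48 to 124 counts of ENSG00000241962, and MRPS24 had 4 to 15 counts.

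Without NEL, most of the genes were higher in U937 than in KG1A. In the DMSO libraries 54 of 74 were higher in U937 and 14 were lower (edgeR, adjusted p under 0.05), against 43.0% and 43.4% of 15181 genes tested, of which 86.4% were called. The libraries of the lines did not overlap for 60 members, against 81.6% of all genes tested. The median log2 ratio of U937 over KG1A was 0.45 over the members and 0.00 over all genes tested. MRPS10 (ENSG00000048544, chr6:42174539-42185603) had 517, 527, 536 and 549 CPM in U937 DMSO libraries, against 29.9, 27.9, 28.3 and 32.4 CPM in KG1A DMSO libraries. This is a 16.9-fold higher level (log2 4.08 ± 0.05, adjusted p = 1.64e-19, edgeR). In U937 with NEL it had 398, 401, 416 and 423 CPM, still far above the KG1A NEL libraries at 30.3, 31.0, 29.4 and 30.3 CPM. Its own NEL effect in U937 was -0.37 ± 0.04 (log2, adjusted p = 9.82e-07). MRPS10 alone made up 11.3 ± 0.310% of the members' counts in U937 with NEL and 10.9 ± 0.197% with DMSO, against 1.00% and 0.950% in KG1A. Without it the other members took 0.330 ± 0.00726% of counts in U937 with NEL and 0.419 ± 0.0120% with DMSO.

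MRPL14 (chr6:44081194-44095194), a protein of the subunit interface, had 60.8, 64.6, 58.4 and 66.0 CPM in U937 DMSO libraries, against 13.6, 14.1, 14.8 and 12.7 CPM in KG1A DMSO libraries. The level was 4.27-fold higher in U937 (log2 2.09 ± 0.07, adjusted p = 1.72e-14). With NEL it had 30.9, 30.7, 29.96 and 28.2 CPM in U937 and 14.98, 12.97, 13.8 and 12.4 CPM in KG1A, so the lines were nearer to each other with NEL than with DMSO. MRPL24 was 3.34-fold (log2 1.74 ± 0.06, adjusted p = 2.36e-14) and MRPL2, of the peptidyl transferase region, 3.10-fold higher in U937 (log2 1.63 ± 0.05, adjusted p = 1.06e-14, edgeR). Genes lower in U937 were led by MRPL49 (log2 -0.91 ± 0.05, adjusted p = 1.44e-11), MRPL48 (-0.86 ± 0.06, adjusted p = 3.60e-10), MRPL11 (-0.85 ± 0.05, adjusted p = 1.59e-10) and MRPL16 (-0.79 ± 0.07, adjusted p = 1.20e-08), 4 genes of chromosome 11. Of the other tested members on that chromosome, MRPL17 (0.74) and MRPL23 (0.58) were higher in U937 and MRPL21 (-0.17) was lower.

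The difference between the lines went with chromosomal position. Across the 74 genes it correlated with the median difference of other tested genes within 1 Mb (Pearson 0.53, Spearman 0.70, a description across genes), whereas the NEL effect had correlations with its neighbours of 0.13 and 0.22 in U937 and 0.21 and 0.06 in KG1A. MRPS10, MRPL2, MRPS18A and MRPL14 lie within chr6:42174539-44095194, and 38 of the 40 other tested genes of this stretch were higher in U937 and 1 was lower, with a median log2 ratio of 1.01. Of the other 735 tested genes of chromosome 6, 311 were higher and 344 lower in U937, with a median of -0.09. The copy number of the region was not measured here.

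**Figure D4:**
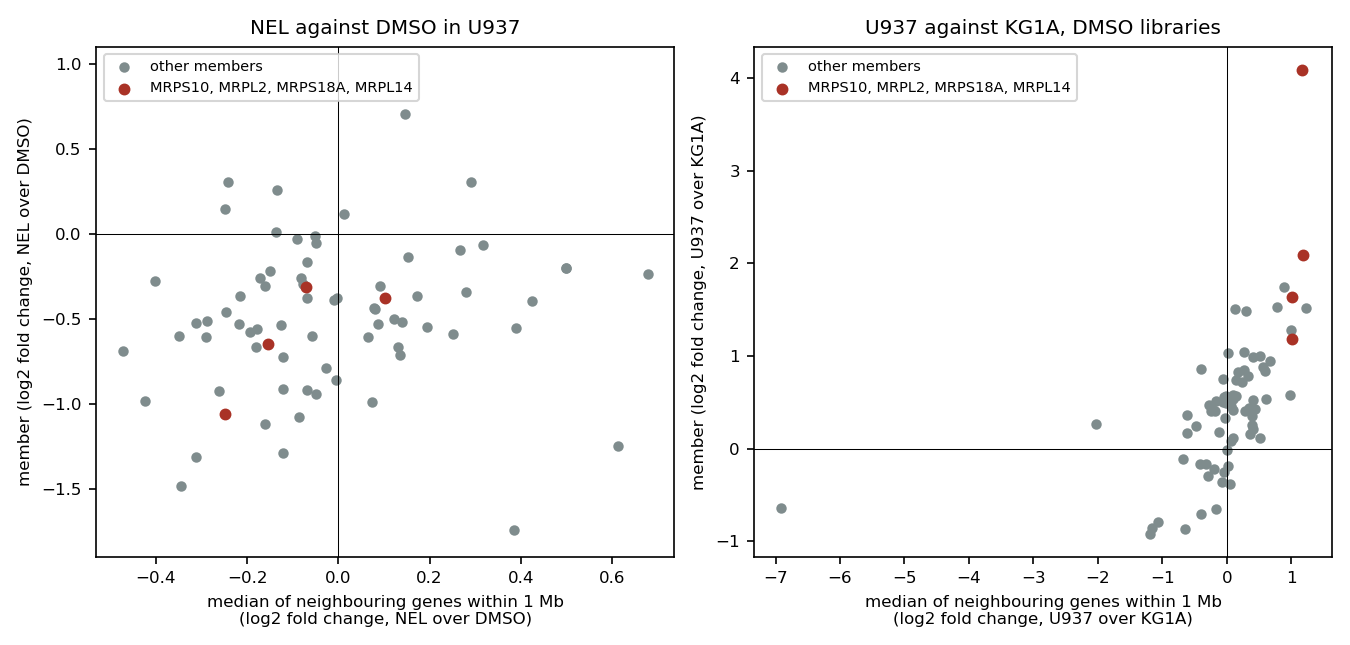
Each member's log2 fold change (vertical) against the median log2 fold change of other tested genes within 1 Mb (horizontal), for NEL over DMSO in U937 (left) and for U937 over KG1A in DMSO libraries (right); the 4 genes of the chromosome 6 stretch are in red. The points rise to the right in the right panel (Spearman 0.70) and less so in the left one (0.22).

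Genes that work with the mitochondrial ribosome were read from the same fits. Among all genes tested, 34.7% were lower and 34.6% higher in U937, and 23.6% lower and 23.6% higher in KG1A. On unscaled RPKM, 4025 of 14390 genes were lower and 5738 higher in U937. In KG1A, 2263 of 14250 were lower and 4106 higher on that scale. The 5 mitochondrial ribosomal proteins with other symbols were all lower with NEL in U937 (median -0.72): AURKAIP1 at -0.83 ± 0.11 (adjusted p = 8.29e-06), CHCHD1 at -0.78 ± 0.08 (adjusted p = 6.81e-07), GADD45GIP1 at -0.72 ± 0.09 (adjusted p = 4.96e-06), PTCD3 at -0.32 ± 0.05 (adjusted p = 6.33e-05) and DAP3 at -0.22 ± 0.06 (adjusted p = 0.00579). In KG1A CHCHD1 (-0.20, adjusted p = 0.0371) and PTCD3 (-0.12, adjusted p = 0.0182) were called lower, and the other members of that list were at -0.06 to 0.07. On unscaled RPKM none of the 5 was called in KG1A.

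Of 30 assembly factors, 17 were lower and 4 higher in U937 (median -0.30), led by C1QBP, a matrix chaperone of assembly (log2 -1.20 ± 0.05, adjusted p = 9.36e-11), and DHX30, an RNA helicase (-0.95 ± 0.05, adjusted p = 7.69e-10). In KG1A 9 were lower and 5 higher, and 3 lower and 5 higher on unscaled RPKM. C1QBP was at -0.35 and DHX30 at -0.26 there, both called. Of 14 translation factors 11 were lower and 1 higher in U937 (median -0.35), among them the elongation factors GFM1 (-0.66 ± 0.05, adjusted p = 3.97e-08) and TUFM (-0.65 ± 0.06, adjusted p = 1.84e-07). In KG1A 4 were lower (28.6%, against 23.6% of all genes tested) and 1 higher, or 2 and 1 on unscaled RPKM. The smallest p-values there were those of MRRF, which recycles ribosomes (-0.39 ± 0.06, adjusted p = 0.000158), and the initiation factor MTIF3 (-0.34 ± 0.06, adjusted p = 0.000412).

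Genes for the expression of mitochondrial DNA and its nuclear regulators were lower in 19 of 22 cases and higher in 1 in U937 (median -0.56). The smallest p-values of the list in U937 were those of PPRC1, a PGC-1-related coactivator (-1.37 ± 0.05, adjusted p = 4.39e-11), and of TWNK, the mitochondrial DNA helicase (-1.76 ± 0.07, adjusted p = 7.49e-11). TWNK overlaps MRPL43 on the opposite strand, and MRPL43 itself was at -0.71. TFAM, which packages mitochondrial DNA and starts its transcription, was at -0.56 ± 0.06 (adjusted p = 1.80e-06) in U937 and 0.02 (adjusted p = 0.821) in KG1A. POLRMT, the mitochondrial RNA polymerase, was at -0.58 in U937 and -0.20 in KG1A, both called. The ETS factor subunits GABPA and GABPB1 were lower in both lines, at -0.35 and -0.54 in U937 and at -0.45 and -0.47 in KG1A. In KG1A 9 of 21 genes of the list were lower (42.9%, against 23.6% of all genes tested) and 1 was higher.

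MYC, a transcription factor known to raise genes of ribosome and mitochondrial biogenesis, had 78.7 ± 3.01 CPM with NEL and 442 ± 6.99 CPM with DMSO in U937 (log2 -2.49 ± 0.04, adjusted p = 6.21e-14). In KG1A it had 520.3 ± 11.04 CPM with NEL and 711 ± 15.98 CPM with DMSO (log2 -0.46 ± 0.04, adjusted p = 1.53e-07, SD with n = 4 each). The difference between the lines was -2.04 (adjusted p = 1.99e-17, edgeR), and the part of MYC in the members' values was not tested. In U937, the 8 genes with the E-box letters in their promoter had a median of -0.51 and those without it -0.50.

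The RNA that mitochondrial ribosomes translate, and that of the nuclear partners of the products, was read as well. Over all genes tested, the shares called lower were 34.7% in U937 and 23.6% in KG1A. Of 13 protein genes of mitochondrial DNA, 9 were lower and 1 higher in U937 (median -0.54), with MT-ND1 at -0.99 ± 0.09 (adjusted p = 4.28e-07) and MT-CYB at -0.89 ± 0.09 (adjusted p = 1.07e-06). In KG1A MT-CYB (-0.31, adjusted p = 0.0127) and MT-ND4L (-0.23, adjusted p = 0.00268) were called lower, and no gene of the 13 on unscaled RPKM. Of 74 tested nuclear subunits of oxidative phosphorylation 51 were lower and 5 higher in U937 (median -0.30), or 40 and 10 on unscaled RPKM, led by the ATP synthase subunits ATP5MC1 (-1.17 ± 0.06, adjusted p = 1.56e-09) and ATP5MC3 (-0.56 ± 0.04, adjusted p = 2.73e-08). In KG1A 28 of 75 were lower and 3 higher, or 21 and 7 on unscaled RPKM, with ATP5MC2 at -0.52 and ATP5F1A at -0.30.

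Genes on the list of cytosolic ribosomal proteins had another pattern. Of 83 tested in U937, 67 were lower (80.7%, against 34.7% of all genes tested) and 2 higher (median -0.33). Of 84 in KG1A, 69 were lower (82.1%, against 23.6%) and 1 higher (median -0.37). RPS15 was at -0.71 ± 0.05 in U937 and -0.61 ± 0.04 in KG1A, and RPS25 at -0.52 ± 0.04 in KG1A. RPL7L1, by its name an RPL7-like gene and counted in this list, was at -1.01 ± 0.04 in U937. In the interaction, 10 cytosolic genes were called negative (11.9%) and 14 positive (16.7%, median 0.04), against 26.3% and 21.1% of all genes tested. The mitochondrial ribosomal genes had 49 negative and 1 positive. With DESeq2's size factors, 5 cytosolic genes were negative and 27 positive, against 3483 and 4122 of 16117 genes tested. For the nuclear subunits of oxidative phosphorylation 31 were negative (41.3%) and 2 positive (2.67%), or 23 and 8 with DESeq2's size factors.

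**Figure D5:**
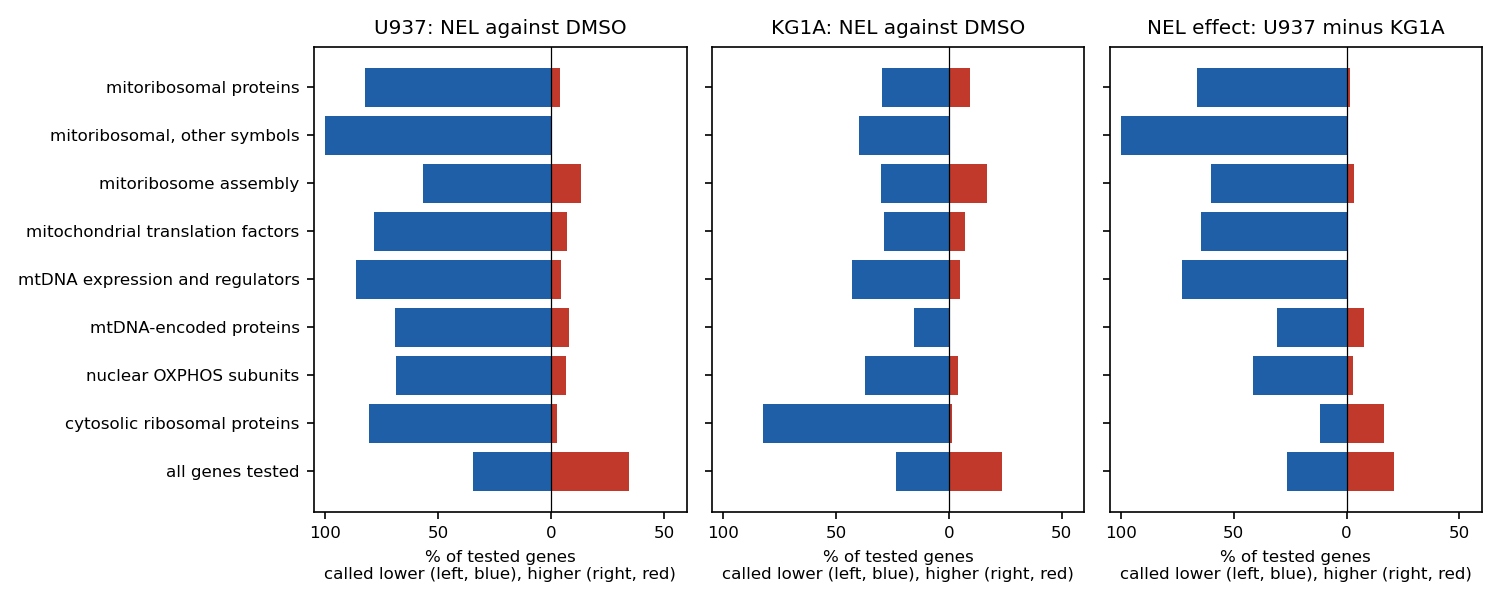
Percent of tested genes called lower (blue, left of 0) and higher (red, right of 0) in each gene list and in all genes tested, for NEL against DMSO in U937, in KG1A and for how the NEL effect differed (U937 minus KG1A). Cytosolic ribosomal proteins were lower in both lines, whereas most mitochondrial ribosomal proteins were called lower in U937 and a smaller share in KG1A.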

How the data were processed

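Polyadenylated RNA was sequenced from stranded libraries, per the labels' protocols. Per the submitters' processing notes, bcl2fastq 2.18.0.12, TopHat2 and HTSeq 0.11.2 were used with hg19 (GRCh37); the labels name neither an annotation nor a strand setting. Deposited by the authors were raw counts per gene and library and RPKM values, which equal count per exon length and library total within a relative deviation of 1.86e-07. Genes without a symbol held 0.878% of counts.

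From the deposited counts, edgeR 4.0.16 (R 4.3.3) gave quasi-likelihood tests with TMM scaling and a filter on low counts (minimum count 10, minimum total 15) per line, for the interaction over 16 libraries, and between lines in DMSO, with Benjamini-Hochberg adjustment over all genes and a threshold of 0.05. The SE is the log2 fold change divided by the root of the F value. CPM are TMM-scaled over 16 libraries. Alternatives used limma 3.58.1 on log2(RPKM + 0.5) and log2(RPKM + 0.1), DESeq2 1.42.0, other filters, library subsets and the replicate number as a block. Figures used Python 3.11.15, pandas 2.3.3 and matplotlib 3.10.9. Each test was run on simulated counts with few changed genes, a fixed spread and no odd and even sets, unlike these data. Changes of 0.5 on the log2 scale were recovered there in 67% (interaction) to 88% (U937) of cases.

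Same-numbered libraries deviated together (correlations of 0.28 to 0.37 in all pairs of groups compared, above 0.1), so the numbers were taken as pairs in an alternative fit, the replicate block. The main tests used neither the pairing nor the odd and even sets. Libraries of other numbers in the same odd or even set correlated as much (0.26 to 0.40), and those of the other set at -0.40 to -0.26, so the data separate the sets and not the single numbers. The labels do not say what the numbers mark. Named members were the 6 called, non-overlapping genes with the largest change each way per line, the 4 largest each way in the interaction and between lines, the 4 highest and 4 lowest RPKM, members that failed the filter, and a short list of known roles; MRPL4, MRPL14 and others in counts were named after their values were seen. The members and all gene lists were chosen with earlier results of these data known, and the list comparisons on other scalings were added after seeing the data. Of the members, 34 have named pseudogenes (71 in all), 16 overlap a gene on the same strand and 32 one on the opposite strand, where counts may be shared. Some markers on the list of other lineages are not reported here and were left out of its sums. SE values rest on the spread among libraries in each fit, and SD values on the 4 libraries of a group. Floors cover counting error only.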

Additional observations from a re-analysis of the deposited data

Results flagged for a closer look

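Among 148 groups of 4 libraries, over 36 named and tested members and the members' share of counts, 6 held a library whose gap to its nearest neighbour exceeded the critical value of Dixon's test, where chance gives about 5%. MRPL58 had 16.2 CPM in KG1A NEL library 1, beside 13.3 to 13.5 in the other libraries. MRPL52 had 49.1 CPM in U937 NEL library 4, beside 43.2 to 44.2. MRPS12 had 29.1 CPM in U937 NEL library 1, beside 32.3 to 32.8. MRPS30 had 63.6 CPM in U937 NEL library 4, beside 66.6 to 67.2. MRPS18A had 29.6 CPM in KG1A DMSO library 3, beside 22.6 to 23.0. The members' share of counts was 0.296% in KG1A DMSO library 1, beside 0.309 to 0.310%.

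For 22 of the 36 named members the NEL effect differed between the lines by the interaction test (edgeR, adjusted p under 0.05). On the log2 scale, U937 minus KG1A, large-subunit genes stood at -1.51 (MRPL1), -1.23 (MRPL12), -1.03 (MRPL14), -1.03 (MRPL20), -0.77 (MRPL24), -0.51 (MRPL49), -0.42 (MRPS18A), -0.38 (MRPL18), -0.35 (MRPL37), -0.34 (MRPL44), -0.33 (MRPL58), -0.28 (MRPL11), -0.25 (MRPL2) and -0.23 (MRPL34). Small-subunit genes stood at -1.09 (MRPS26), -1.09 (MRPS12), -1.02 (MRPS17), -0.58 (MRPS11), -0.50 (MRPS28), -0.41 (MRPS10) and -0.29 (MRPS18C), and MRPS6 at 0.31.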

How the results depend on the processing

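For named members in KG1A, 353 alternative values kept direction and call, 33 lost the call, 8 gained one and 6 changed sign, and in U937 these numbers were 321, 10, 7 and 2. All 140 values of the interaction kept direction and call, but they cover only MRPL1, MRPL12, MRPS26, MRPS12 and MRPS6. So did all 160 between the lines, for MRPL49, MRPL48, MRPL11, MRPL16, MRPS10, MRPL14, MRPL24 and MRPL2 only. These genes were picked for the largest called values in these data, so their stability does not speak for the other members. Each change of sign lay below the threshold. In KG1A, MRPL11 was at 0.0332 and 0.0336 with limma (pseudocounts 0.5 and 0.1) and at 0.0357 in even-numbered libraries, and MRPS18B at 0.0031 and 0.0032 with limma and 0.00748 in even-numbered libraries. In U937, MRPL10 was at 0.0348 with limma and a pseudocount of 0.5 and 0.0361 with 0.1. The cause was not tested. List medians in KG1A turned positive on unscaled RPKM for ribosomal proteins with other symbols (0.0127), assembly factors (0.0326) and translation factors (0.0089), an alternative chosen after seeing the data. The median over all genes tested in KG1A was 0.0528 on that scale, above each of these list medians.

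The count of members higher in KG1A was 11 with the replicate block and 4 at an adjusted p under 0.01, and in U937 it was 5 with limma and a pseudocount of 0.5. Genes higher over all tested numbered 4111, 2510 and 5738 in these fits, against 3367 in KG1A and 4985 in U937 in the main fits. Positive differences between the lines numbered 4 with DESeq2's size factors, 3 with DESeq2's test, the replicate block, odd-numbered libraries, library set as a covariate or libraries summed in pairs, and 2 in even-numbered libraries. Over all genes tested they numbered, in the order named, 4122, 4015, 3947, 3143, 3933, 3738 and 3102, against 3404 in the main fit. The replicate block changed no other count of members by over 1.5 times. Leaving out single libraries gave 59 to 62 lower, 3 to 4 higher and 62 to 65 called in U937. In KG1A it gave 18 to 25 lower, 6 to 7 higher and 25 to 31 called. In the interaction 47 to 51 were negative, 1 to 2 positive (2 without KG1A DMSO library 3 or U937 DMSO library 4) and 48 to 52 called. Between the lines 50 to 53 were higher and 12 to 15 lower, against 54 and 14 with all libraries. MRPL30 and MRPS24 were below the count minimum at this depth and could not be tested; the part of overlapping genes in their low counts was not tested.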
